A study of Mus musculus with 6 samples.

Results

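The genes of 10 macrophage nuclear receptors, Nr1h2, Nr1h3, Pparg, Ppard, Rxra, Rxrb, Rara, Vdr, Nr4a1 and Nr3c1, were followed across cultured mouse macrophages that had or lacked the transcription factor c-Maf. The genes were chosen by name, and every non-control probe that the array design assigns to one of them was taken, which gave 14 of 55681 probes for 10 of 34763 genes or unnamed transcripts. Total RNA of 6 samples had been hybridised to 1-colour Agilent mouse arrays, with 3 samples a genotype. The wild-type (WT) group held M2-like bone marrow-derived macrophages (BMM) of chimeric mice made with WT fetal liver, and the c-Maf KO group the same kind of cells from chimeras made with c-Maf KO fetal liver. Both groups shared the culture, in medium with M-CSF, the macrophage growth factor, at 10 ng/ml, to which M-CSF was given again each day from day 4. M-CSF is the only cytokine that the labels name for these cells. The labels give the tissue as liver and the cells as BMM, and they do not give the age of the mice, the allele deleted, the share of cells left from the chimeras' hosts, or whether the 3 samples of a genotype came from separate mice, so p-values describe how these particular samples spread, and that spread may be technical.

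Nuclear receptors are transcription factors that bind small fat-soluble ligands and, through a zinc-finger domain, DNA. Without ligand many of them sit on their sites with corepressors, and ligand swaps these for coactivators. The retinoid X receptors are the shared partner with which the liver X receptors (LXR), the PPARs, the retinoic acid receptors (RAR) and the vitamin D receptor (VDR) bind DNA as pairs, while the glucocorticoid receptor and the NR4A receptors also act without that partner. In macrophages these receptors are known for sensing oxysterols, fatty acids, retinoids, vitamin D and glucocorticoids, and for setting cholesterol efflux, fat storage and the tone of inflammatory genes.

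The deleted gene was read first. On its brighter probe, the log2 ratios of Maf lay between 1.92 and 2.03 in WT and between -2.36 and -1.92 in KO, a difference of -4.14 ± 0.12 (SE, limma, adjusted p = 0.000826). Its second probe was well above background on 3 of the 5 arrays, had ratios of 1.74 to 1.83 in WT and -3.04 to -1.74 in KO, and did not pass the test (adjusted p = 0.0522). These ratios, the main measure below, are the authors' deposited values, log2-transformed, for all 6 samples, each relative to the probe's median over the 6. Levels come from the scanner intensities of 5 arrays, WT replicates 1 to 3 and KO replicates 2 and 3, as log2 above the array's 75th percentile (an intensity of 411 to 495); the scanner file of KO replicate 1 was not analysed here. The ratios of the 5 arrays are the same measurements centred (Pearson r over probes 1.00 on each), so both sources differ only through the 6th sample. All 5 arrays sit on slide 1, where each genotype has a row of its own, and genotype therefore cannot be told apart from row. The 11 macrophage markers tested were all above background, with summed levels of 1266 to 1362 times the 75th percentile in WT and 1213 to 1227 in KO, and 1 of 11 had a higher mean in KO (median difference -0.19). Among markers of other cells, those of stromal cells and of monocytes had a higher mean ratio in every KO sample than in every WT sample. Of the stromal markers 14 of 15 were kept and all 14 had a higher mean in KO (median difference 0.89), with summed levels of 158 to 243 in WT and 293 to 329 in KO. Their mean log2 ratio was -0.065, -0.91 and -0.59 in the WT replicates and 0.20, 0.13 and 0.51 in the KO replicates. Of 5 monocyte markers 3 were kept, and 2 of the 3 had a higher mean in KO (median difference 0.73). Their mean ratio was -0.49, -0.33 and -0.20 in WT and 0.34, 0.23 and 0.33 in KO, with summed levels of 39.7 to 46.2 in WT and 42.4 to 50.6 in KO. The part of stromal cells or monocytes in the receptor values was not tested. In these bulk samples fewer cells of a type and less RNA per cell cannot be told apart.

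No member passed the test in either source. All 14 probes of the 10 receptors were well above background on all 5 arrays, and none reached an adjusted p under 0.05 by limma, in a table where 6 of 28273 probes (0.0212%) did so over 6 samples and 7 (0.0248%) did so on the 5 arrays. Their differences, KO minus WT, ran from -0.25 to 0.47 in log2, with 7 probes above 0 and 7 below 0, and a median of -0.0020 beside -0.0038 over all probes tested. At an unadjusted p under 0.05 stood 5 of the 14 probes over 6 samples, against 12.1% of all probes, and 2 of 14 on the 5 arrays, against 10.5%. The 3 KO samples lay above the 3 WT samples for 4 of the 14 probes (10.2% of all probes) and below them for 0 of 14 (9.26%). On the 5 arrays these counts were 5 (13.2% of all probes) and 2 (16.2%). Both probes of Nr1h3 are among the 4 and among the 5, so these counts are of probes and not of receptors. The 95% intervals of the 14 differences spanned -0.51 to 0.88 in all, so the size of a difference that these samples could miss depends on the receptor.

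**Figure D1:**
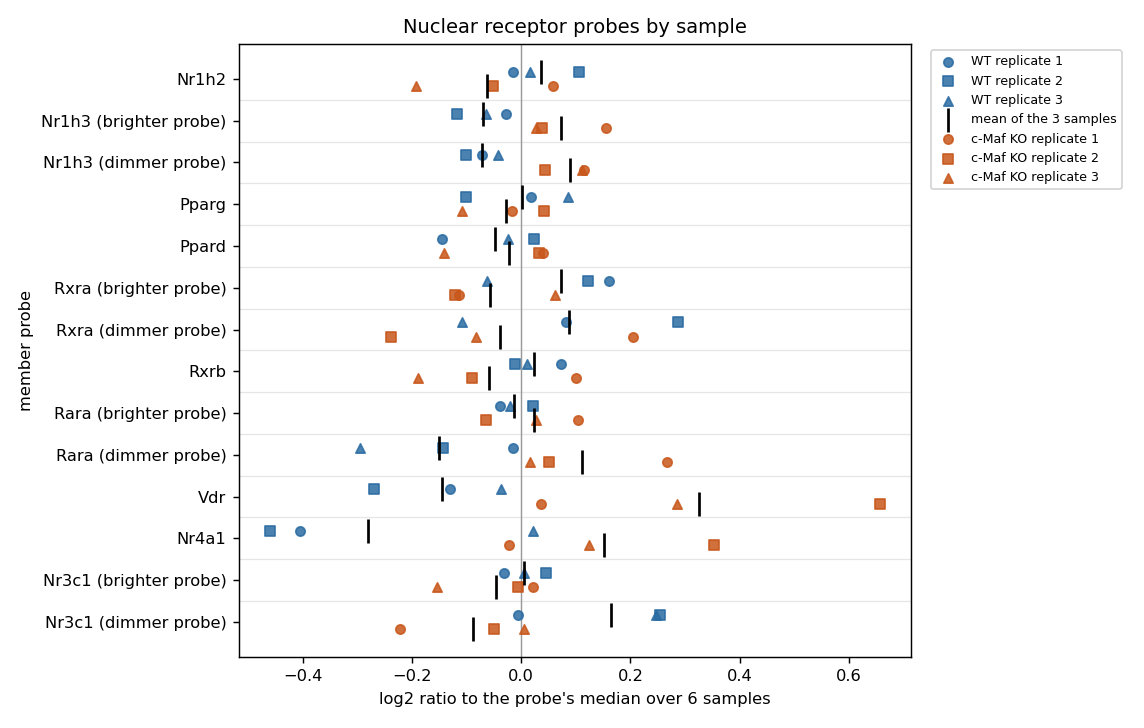
Log2 ratio to the probe's median over 6 samples (horizontal axis) for each of the 14 probes of the 10 receptors (vertical axis), 1 point a sample, coloured by genotype, with a black tick at each group's mean. Vdr and Nr4a1 have the widest spread, while the probes of Pparg, Rxrb and Nr1h2 have WT and KO points that overlap.

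The ends of 3 probes are shown because they carry letters typical of the 3′ end of a transcript. The AATAAA hexamer, the usual poly(A) signal, was found on the printed strand in 3 of the 14 probes and in 10.1% of all probes of 60 bases. The last 30 bases of these probes, 5′ to 3′ as the deposited files give them, are shown with the hexamer in capitals.
Nr1h2: tctcttctgccccttttatttAATAAAaaa
Nr1h3 (brighter probe): acccaaccaAATAAActagccaggagagcc
Rara (brighter probe): agaaagAATAAAgttctatttattctataa
A match only says that the letters are in the probe.

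Of the shared partners, Rxra and Rxrb were both measured and neither passed the test. Rxrb, which encodes the retinoid X receptor beta (1 probe, chr17:34175279-34175338 on mm9, plus strand), had log2 ratios of 0.073, -0.011 and 0.011 in WT and of 0.100, -0.090 and -0.19 in KO. The groups overlapped over 6 samples, since KO replicate 1 was the highest of all. The difference was -0.084 ± 0.089 (SE, limma, adjusted p = 0.731). On the 5 arrays its level was 4.51 ± 0.047 (SD, n = 3) in WT and 4.34 ± 0.058 (SD, n = 2) in KO, with both KO arrays below all WT arrays and a difference of -0.17 ± 0.069 (adjusted p = 0.501). The 6th sample thus ended the separation of the groups for this gene.

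Rxra encodes the retinoid X receptor alpha, and its brighter probe (chr2:27618781-27618839, plus strand) had ratios of 0.16, 0.12 and -0.062 in WT and -0.11, -0.12 and 0.062 in KO. WT replicate 3 and KO replicate 3 crossed, so the groups overlapped, and the difference was -0.13 ± 0.091 (SE, limma, adjusted p = 0.596). The dimmer probe (chr2:27615316-27615375) had ratios of 0.083, 0.29 and -0.11 in WT and 0.21, -0.24 and -0.083 in KO, also overlapping, with a difference of -0.13 ± 0.15 (adjusted p = 0.761). Both probes were dim, with WT levels of -1.70 ± 0.13 and -1.88 ± 0.21 (SD, n = 3), which is under the arrays' 75th percentile.

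The oxysterol sensors LXR alpha and LXR beta, encoded by Nr1h3 and Nr1h2, switch on cholesterol export and fatty acid synthesis. Nr1h3 was read by a brighter probe (chr2:91024250-91024309, minus strand) with ratios of -0.028, -0.12 and -0.064 in WT and 0.15, 0.037 and 0.028 in KO. All 3 KO samples were above all 3 WT samples, by a difference of 0.14 ± 0.066 (95% interval -0.018 to 0.30, a 1.10-fold), which did not pass the test (limma, adjusted p = 0.458).

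Its dimmer probe (chr2:91024345-91024404) had ratios of -0.072, -0.10 and -0.043 in WT and of 0.12, 0.043 and 0.11 in KO. The groups again did not overlap, and the difference was 0.16 ± 0.057 (95% interval 0.021 to 0.30, 1.12-fold, limma adjusted p = 0.361). The probes start 95 bases apart, and on the 5 arrays both also had their KO values above their WT values, by 0.10 ± 0.064 (adjusted p = 0.644) and 0.15 ± 0.065 (adjusted p = 0.520).

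Nr1h2 (1 probe, chr7:51805013-51805072, minus strand) had ratios of -0.015, 0.11 and 0.015 in WT and 0.059, -0.052 and -0.19 in KO. KO replicate 1 lay above WT replicates 1 and 3, so the groups overlapped, with a difference of -0.098 ± 0.085 (limma, adjusted p = 0.667). Levels on the 5 arrays were 4.64 ± 0.068 (SD, n = 3) in WT and 4.49 ± 0.086 (SD, n = 2) in KO, where both KO arrays were below the WT arrays (difference -0.16 ± 0.079, adjusted p = 0.565).

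The fatty acid sensors gave the smallest differences of the lipid receptors. Pparg encodes PPAR gamma, known for driving fat uptake and storage and the alternatively activated state of macrophages. Its probe (chr6:115440213-115440272, plus strand) had ratios of 0.018, -0.10 and 0.086 in WT and -0.018, 0.042 and -0.11 in KO. WT and KO samples were interleaved, with a difference of -0.029 ± 0.078 (95% interval -0.22 to 0.16, limma adjusted p = 0.904).

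The array carries the Pparg probe on 10 spots and each of the other receptor probes on 1. The mean level of the 10 spots was 5.22, 5.10 and 5.27 on WT arrays 1 to 3 and 5.23 and 5.09 on KO arrays 2 and 3. Within an array the spots had an SD of 0.026 to 0.036, while the 3 WT arrays had an SD of 0.085. The spread between samples was thus wider than the spread between spots of an array, and the groups overlapped. Spots of an array share its RNA and are not replicates of a genotype.

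**Figure D2:**
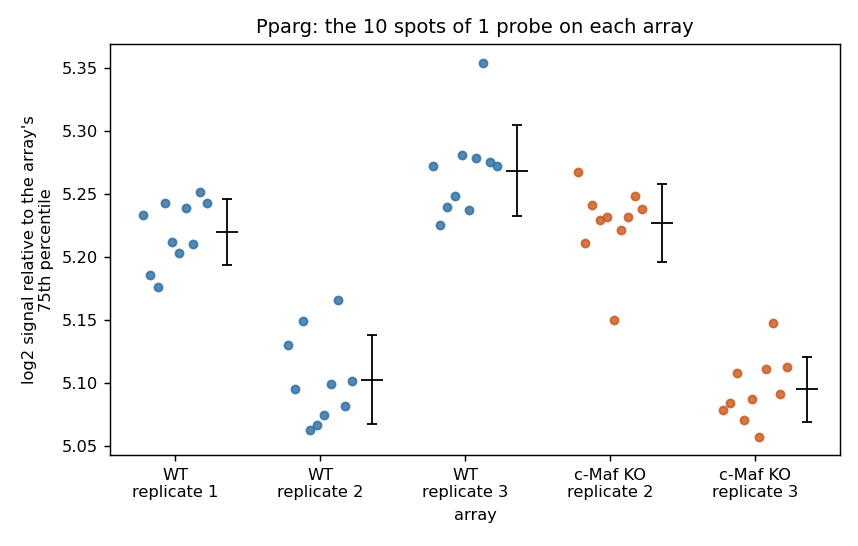
Log2 level of Pparg relative to the array's 75th percentile (vertical axis) on each of 10 spots for 5 arrays (horizontal axis), 1 point a spot, with the array's mean and SD in black. WT array 2 and KO array 3 are lowest at 5.10 and 5.09, and the remaining 3 arrays lie between 5.22 and 5.27.

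Ppard encodes PPAR delta, a fatty acid sensor of fat burning. Its probe (chr17:28438298-28438357, plus strand) had ratios of -0.14, 0.024 and -0.024 in WT and 0.040, 0.033 and -0.14 in KO. The lowest WT and the lowest KO sample were alike, and the difference was 0.025 ± 0.082 (95% interval -0.18 to 0.23, limma adjusted p = 0.924). On the 5 arrays the difference was -0.0082 ± 0.089 (adjusted p = 0.984).

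The receptors of vitamin A and vitamin D products held the widest member difference. Vdr, which encodes the vitamin D receptor (chr15:97685136-97685195, minus strand), had ratios of -0.13, -0.27 and -0.036 in WT and 0.036, 0.66 and 0.29 in KO. Every KO sample was above every WT sample, KO replicate 1 by the smallest margin. The difference was 0.47 ± 0.17 (95% interval 0.065 to 0.88, 1.39-fold), with an adjusted p of 0.359 by limma. Its size was at the 93.4th percentile of all probes. On the 5 arrays the level was -0.51 ± 0.11 (SD, n = 3) in WT and 0.28 and -0.077 in KO replicates 2 and 3, a difference of 0.61 ± 0.13 (adjusted p = 0.354). KO replicate 2 weighed most in this value: the 6-sample difference was 0.31 without it, and 0.62 without KO replicate 1.

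Rara encodes the retinoic acid receptor alpha, and its probes gave different sizes. The brighter probe (chr11:98836197-98836256, plus strand) had ratios of -0.040, 0.021 and -0.021 in WT and 0.10, -0.064 and 0.028 in KO, with overlapping groups and a difference of 0.036 ± 0.067 (limma, adjusted p = 0.860). The dimmer probe, 847 bases away (chr11:98835350-98835409), had ratios of -0.016, -0.14 and -0.29 in WT and 0.27, 0.051 and 0.016 in KO. For this probe all KO samples were above all WT samples, by 0.26 ± 0.11 (95% interval 0.0029 to 0.52, 1.20-fold, adjusted p = 0.408).

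Nr4a1 is an orphan receptor and an immediate early gene, known for its quick induction by inflammatory signals. Its probe (chr15:101105071-101105130, plus strand) had ratios of -0.41, -0.46 and 0.022 in WT and -0.022, 0.35 and 0.13 in KO. WT replicate 3 lay just above KO replicate 1, so the groups overlapped. The difference was 0.43 ± 0.16 (95% interval 0.037 to 0.83, 1.35-fold) and did not pass the test (limma, adjusted p = 0.380). On the 5 arrays the level was -0.30 ± 0.25 (SD, n = 3) in WT and 0.21 ± 0.15 (SD, n = 2) in KO, where the groups did not overlap (difference 0.52 ± 0.17, adjusted p = 0.435). Leaving out 1 sample at a time moved the 6-sample difference from 0.33 without KO replicate 2 to 0.58 without WT replicate 3.

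Markers of granulocytes varied within both genotypes, as Vdr and Nr4a1 did. The mean log2 ratio of 9 neutrophil markers was -0.22, -0.053 and 0.53 in the WT replicates and -0.32, 0.34 and -0.31 in the KO replicates, and that of 4 of 6 mast cell and basophil markers 0.13, -0.19 and 1.56 in WT and -0.86, 1.10 and -0.91 in KO. Kit and Ms4a2, defining genes of mast cells, did not pass the filter on low values. WT replicate 3 and KO replicate 2 had the highest values of both marker groups in their genotype, and they also had the highest Vdr and Nr4a1 ratios of their genotype. The match was not particular to these receptors. Both samples also had the highest Pparg ratios of their genotype (0.086 and 0.042), and Pparg differed by -0.029. Of the 9 neutrophil markers 2 had a higher mean in KO (median difference -0.39). Of the 4 mast cell and basophil markers kept, 0 did (median difference -0.74), while the means of Vdr and Nr4a1 were higher in KO. The part of these cells in the receptor values was not tested.

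Nr3c1 encodes the glucocorticoid receptor, the target of the steroid drugs that repress inflammatory genes. Its brighter probe (chr18:39571641-39571700, minus strand) had ratios of -0.032, 0.045 and 0.0050 in WT and 0.022, -0.0050 and -0.15 in KO, overlapping, with a difference of -0.052 ± 0.071 (limma, adjusted p = 0.797). The dimmer probe, 2542 bases away (chr18:39574183-39574242), had ratios of -0.0055, 0.25 and 0.25 in WT and -0.22, -0.050 and 0.0055 in KO. Its groups overlapped only through WT replicate 1, and the difference was -0.25 ± 0.10 (95% interval -0.51 to -0.00032, adjusted p = 0.413).

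**Figure D3:**
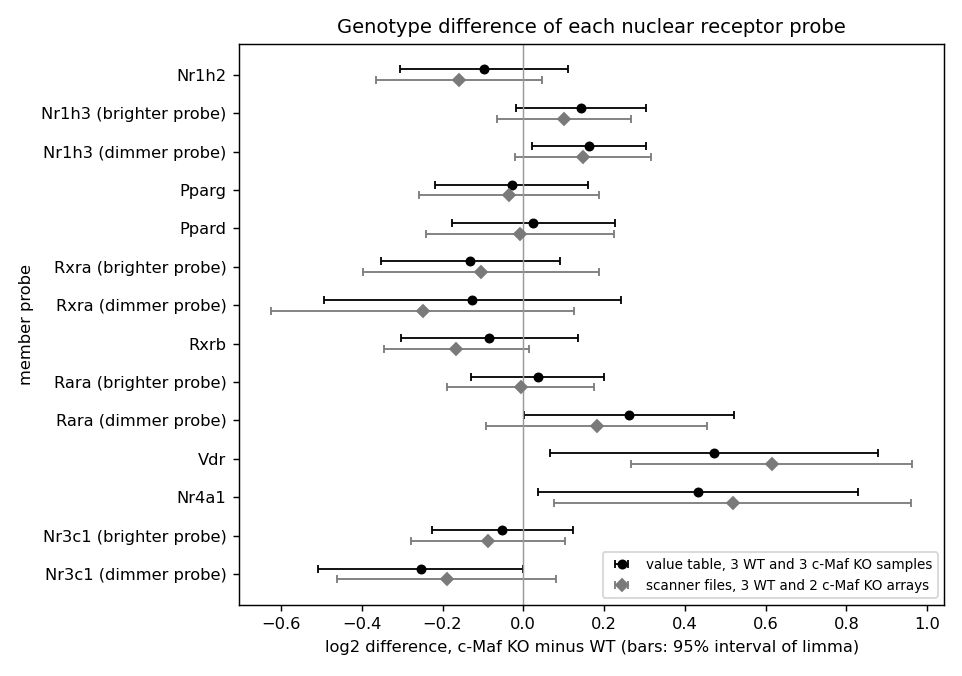
KO minus WT difference in log2 (horizontal axis) for the 14 probes (vertical axis) over 6 samples and on 5 arrays, with 95% intervals as bars. Vdr and Nr4a1 lie farthest to the right, at 0.47 and 0.43 over 6 samples, and no probe passed the adjusted threshold.

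Each of 4 receptors had 2 probes, so their probes could be set against each other by the size of the difference. The gap between brighter and dimmer probe was -0.019 for Nr1h3, -0.0049 for Rxra, -0.23 for Rara and 0.20 for Nr3c1. By an exact 2-sided permutation test over the 6 samples, whose smallest possible p is 0.1, the p-values were 0.8, 1, 0.2 and 0.2, and 1, 1, 0.4 and 0.4 after adjustment over the 4 pairs. A gap of this kind could not reach 0.05 in this design. For Rara the gap within single samples ran from -0.024 to 0.27 in WT and from -0.16 to 0.012 in KO, and for Nr3c1 from -0.24 to -0.027 in WT and from -0.16 to 0.24 in KO, so that the ranges of the genotypes overlapped. Probe positions are on mm9 as the deposited files give them, and their exon or UTR was not assigned.

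Promoters were read for the 2 receptors with the largest differences, to show which letters lie before their starts. Promoters were those of RefSeq on GRCm38.p6, from 250 bases before to 50 bases after each start. Of them, 17 belonged to 9 of the 10 receptors, all but Nr3c1. The full Maf recognition element, which contains the core given next, was found in 0 of these 17 and in 2 of all 32851 promoters. TGCTGA, the core that Maf proteins recognise, was searched on both strands: it was found in 1 of these 17, a promoter of Vdr, and in 19.5% of all 32851 promoters. The Vdr window below (chr15:97908297-97908396, minus strand) holds it in capitals, with its first base 23 bases before the start.
Vdr: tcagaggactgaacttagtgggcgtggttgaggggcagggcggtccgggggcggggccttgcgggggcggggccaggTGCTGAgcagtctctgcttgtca
The short form of the cAMP response element, TGACG, was in 6 of the 17 promoters, those of Nr1h2, Nr4a1, Ppard, Rara and Rxrb, and in 20.8% of all. A promoter of Nr4a1 held 4, a number reached or passed by 0.231% of all promoters, and 2 of them lie in the window below (chr15:101266746-101266845, plus strand), in capitals on the reverse strand as CGTCA, at 69 and 40 bases before the start.
Nr4a1: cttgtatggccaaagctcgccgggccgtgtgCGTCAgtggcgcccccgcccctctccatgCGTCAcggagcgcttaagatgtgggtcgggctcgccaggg
AGGTCA, the core recognised by many nuclear receptors, was in 4 of 17 (Pparg, Rara and Rxra) and in 16.3% of all, and the GC box GGGCGG was in 11 of 17 and in 35.7% of all. All motifs were searched on both strands, TGCTGA and TGACG can share the letters TGA, and a match describes letters only.

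The genes downstream of the receptors were read from lists of known targets, with 1 probe a gene. Over all 20252 genes and unnamed transcripts kept, 50.6% had a difference above 0 (median 0.0017), and the KO samples were above the WT samples for 11.1% and below them for 8.87%. In none of the 8 lists did a gene pass the test over 6 samples or on the 5 arrays. At an unadjusted p under 0.05 over 6 samples stood 4 of 16 LXR, 3 of 16 PPAR, 3 of 10 RAR, 3 of 8 VDR and 4 of 14 glucocorticoid receptor targets, 3 of 22 other receptors, 3 of 21 cofactors and 5 of 13 genes of ligand metabolism, against 12.1% of all probes. The counts on the 5 arrays, in the same order, were 3, 3, 2, 4, 2, 2, 3 and 5, against 10.5% of all probes. The shares of 12.1% and 10.5% are over all kept probes, while the lists count 1 probe a gene. The stromal markers kept had mean ratios of -0.065, -0.91 and -0.59 in WT and 0.20, 0.13 and 0.51 in KO, so that WT replicate 1 was their highest WT sample. The same WT sample was highest for Pdk4, Hic1, Cyp26b1, Spp1, Nr2f2, Ch25h and Aldh1a3, which have some of the largest values below. WT replicate 3 was highest for Scd1 and for Alox5. Among the KO samples, replicate 3 was highest for the stromal markers and for Pdk4, Hic1, Spp1 and Ch25h. KO replicate 1 was instead highest for Cyp26b1 and Nr2f2, and KO replicate 2, the lowest for the stromal markers, for Aldh1a3. The part of stromal cells in these values was not tested.

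Of 16 LXR targets, which handle cholesterol and fatty acids, 10 were above 0 and 6 below 0 (median 0.068), and the KO samples were above the WT samples in 4 and below them in 1. The list holds Nr1h3 itself and, by a mistaken alias, Crybg1 (0.12 ± 0.16), and both are counted above 0. Abca1, the pump that exports cholesterol to lipoproteins, was the gene below: its ratios were 0.089, 0.13 and 0.14 in WT and -0.089, -0.28 and -0.19 in KO, with all KO samples lower and a difference of -0.31 ± 0.070 (limma, adjusted p = 0.238). Abcg1, a second cholesterol exporter, differed by -0.040 ± 0.080 (adjusted p = 0.867), Mylip, which degrades the LDL receptor, by 0.12 ± 0.13 (adjusted p = 0.739) and Srebf1, the regulator of fatty acid synthesis, by -0.070 ± 0.10 (adjusted p = 0.807). Scd1, a fatty acid desaturase picked after its values were seen as the largest of the list, had ratios of -0.23, -0.44 and -0.22 in WT and 0.22, 0.65 and 0.30 in KO. Its groups did not overlap, and its difference was 0.69 ± 0.13 (1.61-fold, adjusted p = 0.200). Abca1 and Scd1 thus lay on opposite sides of 0, and neither passed the test.

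Of 18 PPAR targets on the array 16 were kept, with 11 above 0 and 5 below 0 (median 0.075) and 3 with the KO samples above the WT samples. Cd36, the scavenger receptor for oxidised lipid, differed by 0.13 ± 0.080 (limma, adjusted p = 0.554), Fabp4, a fatty acid carrier, by 0.022 ± 0.082 (adjusted p = 0.933) and Plin2, a coat protein of lipid droplets, by 0.11 ± 0.086 (adjusted p = 0.637). Angptl4, a secreted inhibitor of lipoprotein lipase, had all KO samples above all WT samples, by 0.24 ± 0.072 (adjusted p = 0.300). Pdk4, a kinase that turns cells from glucose to fat burning and the largest of the list, picked after its values were seen, had ratios of -0.20, -1.0 and -0.74 in WT and 0.20, 0.44 and 0.56 in KO. Its difference was 1.04 ± 0.22 (2.06-fold, adjusted p = 0.209).

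Of 12 RAR targets 10 were kept, with 7 above 0 and 3 below 0 (median 0.14) and 2 with the KO samples above. Rarb, itself a retinoic acid receptor, differed by 0.18 ± 0.18 (limma, adjusted p = 0.707) and Dhrs3, a retinal reductase, by -0.058 ± 0.084 (adjusted p = 0.808). Cyp26b1, which clears retinoic acid, had ratios of 0.051, -0.62 and -0.74 in WT and 0.92, -0.051 and 0.57 in KO, overlapping through WT replicate 1 and KO replicate 2, with a difference of 0.92 ± 0.31 (adjusted p = 0.344). Tgm2, a transglutaminase of alternatively activated macrophages, had no overlap and a difference of 0.37 ± 0.093 (adjusted p = 0.256). Hic1, the largest of the list and picked after its values were seen, also had no overlap. Its ratios were -0.16, -0.74 and -0.73 in WT and 0.20, 0.16 and 0.82 in KO, a difference of 0.94 ± 0.24 (limma, adjusted p = 0.260).

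Of 11 VDR targets 8 were kept, with 3 above 0 and 5 below 0 (median -0.13), 2 with the KO samples above and 1 with them below. The latter was Cd14, a co-receptor for bacterial lipopolysaccharide, with a difference of -0.26 ± 0.097 (limma, adjusted p = 0.382). Slc37a2, a sugar phosphate transporter, differed by 0.14 ± 0.096 (adjusted p = 0.596), Thbd, thrombomodulin, by -0.12 ± 0.12 (adjusted p = 0.722) and Fbp1, an enzyme of glucose synthesis, by -0.50 ± 0.40 (adjusted p = 0.636). Spp1, which encodes osteopontin and was picked after its values were seen, had ratios of -0.28, -0.54 and -0.63 in WT and 0.47, 0.28 and 0.53 in KO, with no overlap and a difference of 0.91 ± 0.12 (adjusted p = 0.131). The median of the list thus lay below 0, while Vdr itself lay above 0.

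Of 16 glucocorticoid receptor targets 14 were kept, with 8 above 0 and 6 below 0 (median 0.047) and 3 with the KO samples above. Tsc22d3, the glucocorticoid-induced leucine zipper, differed by 0.050 ± 0.12 (limma, adjusted p = 0.889), Fkbp5, a chaperone that restrains the receptor, by -0.012 ± 0.078 (adjusted p = 0.965), Per1, a clock gene, by -0.054 ± 0.069 (adjusted p = 0.779) and Dusp1, a phosphatase of stress kinases, by 0.054 ± 0.15 (adjusted p = 0.910). These 4 genes each differed by less than their standard error. Picked after their values were seen, 4 others of the list stood at an unadjusted p under 0.05, all with a higher mean in KO. They were Ddit4, a stress-induced inhibitor of mTOR signalling (0.46 ± 0.18, adjusted p = 0.401), Sgk1, a kinase (0.44 ± 0.17, adjusted p = 0.385), Errfi1, an inhibitor of EGF receptor signalling (0.39 ± 0.16, adjusted p = 0.404), and Anxa1, an anti-inflammatory annexin (0.24 ± 0.072, adjusted p = 0.297). The KO samples were above all WT samples for Ddit4, Errfi1 and Anxa1, and those of Sgk1 overlapped.

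**Figure D4:**
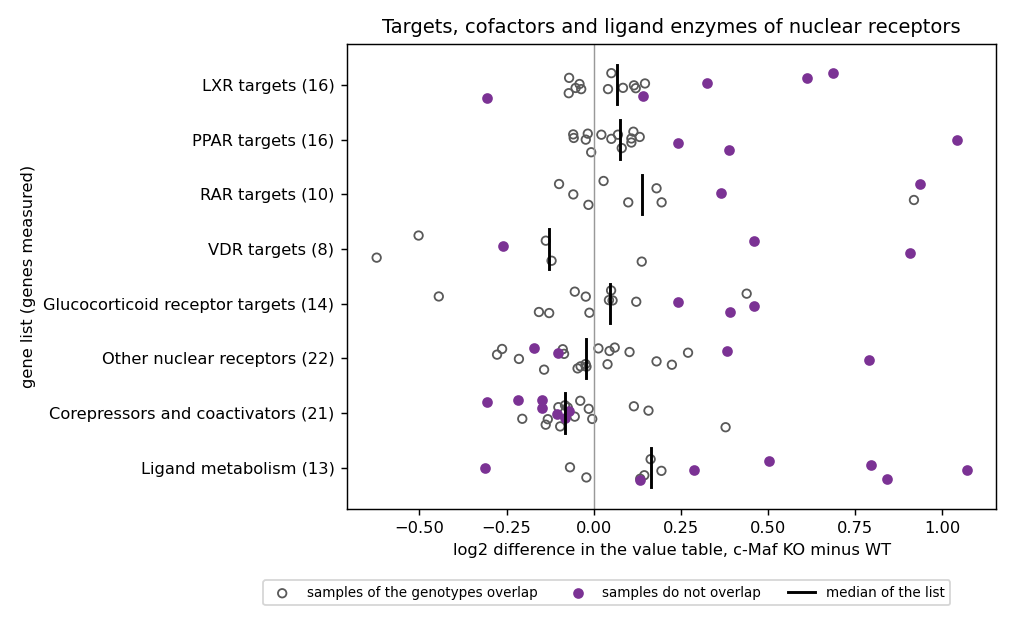
KO minus WT difference in log2 over 6 samples (horizontal axis) for each gene of the 8 lists (vertical axis), 1 point a gene, filled where the samples of the genotypes do not overlap, with a bar at the list's median; the axis calls the deposited ratios the value table. The corepressor and coactivator list has 18 of 21 points below 0, and the ligand metabolism list 10 of 13 above 0.

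Other nuclear receptors were read in the same way: 22 of 39 were kept, with 10 above 0 and 12 below 0 (median -0.022), 2 with the KO samples above and 2 with them below. Nr4a2, the sister gene of Nr4a1, differed by 0.061 ± 0.12 (limma, adjusted p = 0.871), Rxrg, which encodes the retinoid X receptor gamma, by 0.040 ± 0.12 (adjusted p = 0.915) and Rarg, the retinoic acid receptor gamma, by -0.21 ± 0.13 (adjusted p = 0.564). Nr2f2, an orphan receptor of mesenchymal cells and the largest of the list, picked after its values were seen, had ratios of -0.037, -1.24 and -0.47 in WT and 0.50, 0.037 and 0.091 in KO, a difference of 0.79 ± 0.32 (adjusted p = 0.405).

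The corepressors and coactivators, which receptors exchange when ligand binds, lay mostly on one side. Of 22 genes 21 were kept, with 3 above 0 and 18 below 0 (median -0.083), and the KO samples were below the WT samples in 7 and above them in 0, against 8.87% and 11.1% of all genes. On the 5 arrays 16 of 21 were below 0 (median -0.079, beside -0.011 over all genes), with 11 whose KO arrays were below all WT arrays (16.1% of all genes). Without WT replicate 1, 5 of 21 were above 0 over 6 samples. The corepressor Ncor1 differed by -0.082 ± 0.065 (limma, adjusted p = 0.637). The coactivators Ncoa1 and Ncoa2 differed by -0.20 ± 0.13 (adjusted p = 0.562) and -0.083 ± 0.058 (adjusted p = 0.596). Ncoa3, another coactivator picked after its values were seen, had ratios of 0.057, 0.18 and 0.39 in WT and -0.057, -0.17 and -0.061 in KO, all KO samples below all WT samples, and a difference of -0.31 ± 0.10 (adjusted p = 0.329). The 3 genes above 0 were Hdac7, Ncoa4 (0.16 ± 0.091) and Crebbp (0.12 ± 0.070). Hdac7, picked after its values were seen, had the largest difference of the list in size, 0.38 ± 0.26 (limma, adjusted p = 0.590). Its ratios were -0.030, 0.030 and -0.20 in WT and 0.85, -0.18 and 0.26 in KO, overlapping. No gene of the list passed the test.

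Genes that make, clear or carry the ligands lay mostly on the other side. Fabp3, a fatty acid carrier and not an enzyme, is counted among them (0.50 ± 0.10, limma, adjusted p = 0.204). Of 18 genes 13 were kept, with 10 above 0 and 3 below 0 (median 0.16). The KO samples were above the WT samples in 6 and below them in 1, against 11.1% and 8.87% of all genes. On the 5 arrays 10 of 13 were above 0 (median 0.19). The KO arrays were above all WT arrays in 6 (14.1% of all genes) and below them in 2 (16.1%). Ch25h, which makes an oxysterol ligand of LXR, had ratios of -0.13, -0.91 and -0.95 in WT and 0.52, 0.13 and 0.57 in KO, with no overlap and a difference of 1.07 ± 0.25 (2.10-fold, limma adjusted p = 0.245). Cyp27a1, another oxysterol-making enzyme, was the gene below over 6 samples. Its ratios were 0.058, 0.097 and 0.084 in WT and -0.097, -0.54 and -0.058 in KO, a difference of -0.31 ± 0.14 (limma, adjusted p = 0.438).

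Hsd11b1, which activates glucocorticoids, differed by 0.13 ± 0.17 (limma, adjusted p = 0.781) and Aldh1a1, which makes retinoic acid, by 0.15 ± 0.18 (adjusted p = 0.768). Aldh1a3, a second retinoic acid-making enzyme picked after its values were seen, had ratios of -0.20, -0.35 and -0.32 in WT and 0.20, 0.80 and 0.52 in KO, with no overlap and a difference of 0.80 ± 0.16 (1.74-fold, adjusted p = 0.200). Alox5, a lipoxygenase that makes leukotrienes, was also picked after its values were seen and had ratios of -0.36, -0.53 and -0.19 in WT and 0.25, 0.19 and 1.01 in KO. Its groups did not overlap, and the difference was 0.84 ± 0.24 (adjusted p = 0.288).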

How the data were processed

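Total RNA of 6 samples was labelled with Cy3, per the labels, and hybridised to arrays scanned and read with Agilent Feature Extraction 10.7.3.1, per the submitters' processing notes. The authors deposited scanner intensity files, of which 5 were used here, and a table of linear ratios for 6 samples. Every probe's deposited ratios have a median log2 of 0 over the 6 samples, tested on all 55821 entries. Build mm9 and probe positions are those of the file headers. Intensities (processed signals) were log2-transformed and the array's 75th percentile subtracted. Spots of a probe were averaged, control spots left out, and probes kept that were well above background on at least 2 of 5 arrays (28273). Each source was fitted with limma 3.58.1 (R 4.3.3, lmFit and eBayes) over all kept probes, with Benjamini-Hochberg adjustment at 0.05. A gene outside the receptors was represented by 1 probe, the one with the highest mean level. Genes were named from the array design, and 17563 kept probes through RefSeq accessions. Array number limits the precision.

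Named were all probes of the receptors, Maf, the first 4 kept genes of each list any list gene past the threshold, and the 3 genes most correlated with Nr1h3 and with Pparg. Some items are not reported here. Members and lists were chosen with earlier results of these data known. The PPAR list holds Plin2 also under an older name, the LXR list holds Crybg1 by a mistaken alias, and Klf9 and Rarb are each in 2 lists. The fit was tested on simulated data.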

Additional observations from a re-analysis of the deposited data

How the results depend on the processing

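No receptor probe was called over 6 samples or on 5 arrays under any alternative run, in which other background correction, filters, scaling, trend and robust options, the replicate number as a block and leaving out each sample were tried 1 at a time. The counts over all probes moved. On 5 arrays, 7 probes were called as reported, 22 with normexp background correction, 1 when probes had to be above background on all 5 arrays, 123 with trended and robust variances and 2 to 18 when 1 sample was left out. Over 6 samples, 6 were called as reported, 2 without a filter, 50 with trended and robust variances and 2 to 31 when 1 sample was left out (31 without WT replicate 1). Deviations of same-numbered samples from their group's mean correlated at -0.004, -0.044 and 0.081, and those of samples with other numbers at -0.070 to 0.075. The value for replicate 3 was the highest of all. Such correlations cannot settle whether the sample numbers pair the samples. With the replicate block 0 probes were called on 5 arrays and 7 over 6 samples. Trended and robust variances called 1 list gene in each source, Abca1 on 5 arrays (-0.36, limma adjusted p = 0.0488) and Spp1 over 6 samples (0.91, adjusted p = 0.0365); the lowest adjusted p of Vdr over all settings was 0.0873 and that of Nr4a1 0.220. Reversed signs were found only for small differences. On 5 arrays Ppard became 0.0065 and the brighter Rara probe 0.0081 with the percentile over detected probes, and 0.025 and 0.036 with the deposited ratios. Leaving out 1 sample gave, on 5 arrays, -0.086 to 0.070 for Ppard, -0.062 to 0.049 for the brighter Rara probe and -0.10 to 0.030 for Pparg. Over 6 samples it gave -0.023 to 0.085 for Ppard, -0.0050 to 0.079 for the brighter Rara probe, -0.080 to 0.013 for Pparg and -0.085 to 0.0024 for the brighter Nr3c1 probe. The causes were not tested. List counts, recomputed in a step chosen after seeing the data, kept 0 calls otherwise; without WT replicate 1 the ligand metabolism list still had 10 of 13 genes above 0 over 6 samples. The slide could not be used as a block, since all 5 arrays sit on slide 1.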

Other observations

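Genes whose pattern over the 6 samples was most like that of a lipid sensor were named for Nr1h3 and Pparg. Across the 6 samples, which include the difference between genotypes, the log2 ratios of Mrps17, a protein of the mitochondrial ribosome, had the highest Pearson correlation with the brighter Nr1h3 probe (r = 0.990), before Chuk, a kinase of the NF-kappaB pathway (r = 0.987), and Vapb, a protein of the endoplasmic reticulum (r = 0.986). Nearest to Pparg were Serac1 (r = 0.979), Mfhas1 (r = 0.979) and Snx20 (r = 0.978). These are the top values over 6 samples on the same arrays, among those of 20252 genes and unnamed transcripts (1 probe each) that have a RefSeq name. High values can arise from the number of genes searched, and these are given as a description.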
